A study of Canis lupus familiaris with 8 samples.

Results

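The 10 genes described here encode brakes and drivers of the passage from G1 into S phase: the CDK inhibitors CDKN1A, CDKN1B, CDKN1C and CDKN2B, the G1 cyclins CCND1, CCND2, CCND3, CCNE1 and CCNE2, and SKP2. They were chosen by name from a table of 37952 genes, and all 10 were found. All 10 also passed the filter on low counts that left 14571 tested genes. The cells were MDCK GII, a line of dog kidney epithelial cells, grown overnight to a monolayer in medium with serum, on collagen-coated elastic membranes. In 4 wells the membrane was pulled to 18% strain, equally in both in-plane directions, and held there for 2 hours. The other 4 wells were controls of the same line, with no strain. All wells came from 1 cell line and are described as technical quadruplicates spread over separate devices, so every p-value below measures only the spread between wells.

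Cyclin-dependent kinases drive the cell cycle and need a cyclin partner. D-type cyclins activate CDK4 and CDK6 when growth signals such as EGFR-ERK are present, and E-type cyclins then activate CDK2. Together these kinases inactivate the retinoblastoma protein and free the E2F factors. INK4 inhibitors such as CDKN2B (p15) block CDK4 and CDK6, while the CIP/KIP inhibitors p21 (CDKN1A), p27 (CDKN1B) and p57 (CDKN1C) block mainly CDK2 complexes. SKP2 is the subunit of a ubiquitin ligase that marks p27 for degradation, so the p27 protein is set by much more than its mRNA. Only mRNA was measured here.

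Total counts ranged from 27047358 to 32478887 per well. The epithelial identity of the cells was plain in the markers. The 8 epithelial markers examined summed to between 5317 and 5884 CPM (counts per 1000000, after TMM normalisation) across the controls and to between 5546 and 5710 CPM across the strained wells. The 10 markers of fibroblasts, blood and endothelium summed to between 1.02 and 1.40 CPM across the controls and between 1.20 and 1.49 CPM across the strained wells. Of these, COL1A2, DCN, LUM and PTPRC had 0 counts in all 8 wells. CLDN1, singled out after its values were seen, was the epithelial marker whose groups did not overlap. With the replicate block described below its log2 change was -0.12 ± 0.035 (SE; edgeR, adjusted p = 0.165).

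After strain, CDKN1B was lower in every stretch well than in any control well, while its relative CDKN1A was higher in every same-numbered pair of wells. The 3 D-type cyclins were higher in all 4 pairs, by 0.011 (CCND3, pair 2) to 0.68 (CCND1, pair 2) on the log2 scale. CCNE1 was slightly lower in all 4 pairs, while CCNE2, CDKN1C, CDKN2B and SKP2 had pairs of both signs. Without a block for replicate number, 0 of the 10 members passed edgeR's quasi-likelihood test at an adjusted p of 0.05. The share of all tested genes called there was also 0%. At an unadjusted p under 0.05 there were 2 members, CDKN1B and CDKN1A, against 3.97% of all tested genes. With the replicate number as a block, which compares wells of the same number, 1 of 10 members, CDKN1B, passed in edgeR's test, where 0.7% of all tested genes were called. At an unadjusted p under 0.05 with the block there were 6 of 10 members, against 8.89% of all tested genes. The same number of members, 6 of 10, kept 1 sign in all 4 pairs, which 16.3% of all tested genes did. The median log2 change with the block was -0.068 over the 10 members and -0.0022 over all tested genes.

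**Figure D1:**
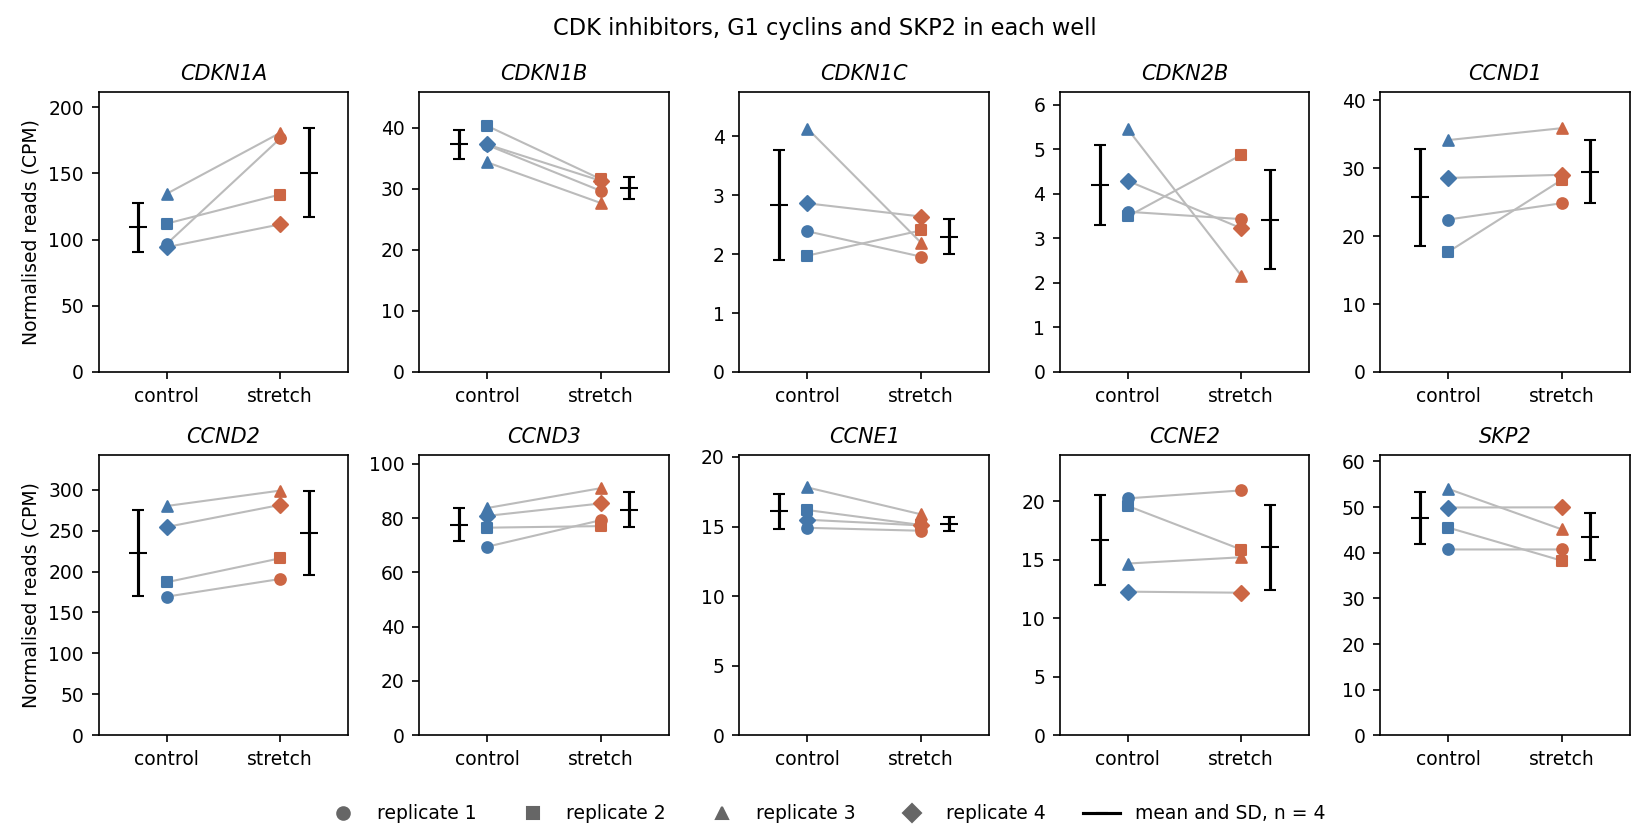
Normalised read counts (CPM, linear axes from 0) of the 10 genes in control wells (blue) and stretch wells (orange). Marker shapes give the replicate number, grey lines join same-numbered wells, and black bars give the mean and SD of 4 wells. All 4 lines fall for CDKN1B and all 4 rise for CDKN1A.

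Levels of different genes can be compared only per length, so CPM was divided by the exon length in the table (CPM per kb). In control wells the CIP/KIP inhibitors CDKN1B and CDKN1A stood highest, at 62.4 ± 4.08 and 52.4 ± 8.88 CPM per kb (SD, n = 4 for all levels given here). Their control wells overlapped, so their order was not separated from the spread. The D-type cyclins CCND2 and CCND3 followed at 33.9 ± 8.06 and 31.3 ± 2.50 CPM per kb, again with overlapping wells, and then CCND1 at 20.6 ± 5.76 CPM per kb. No control well of CDKN1A was as low as any of CCND2, and none of CCND3 was as low as any of CCND1. SKP2 stood at 14.8 ± 1.78, CDKN2B at 10.1 ± 2.16 and CCNE1 at 8.42 ± 0.656 CPM per kb, and each overlapped the gene next to it in this order. CCNE2 lay below every CCNE1 well, at 6.07 ± 1.40 CPM per kb. CDKN1C was lowest, at 1.66 ± 0.546 CPM per kb.

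**Figure D2:**
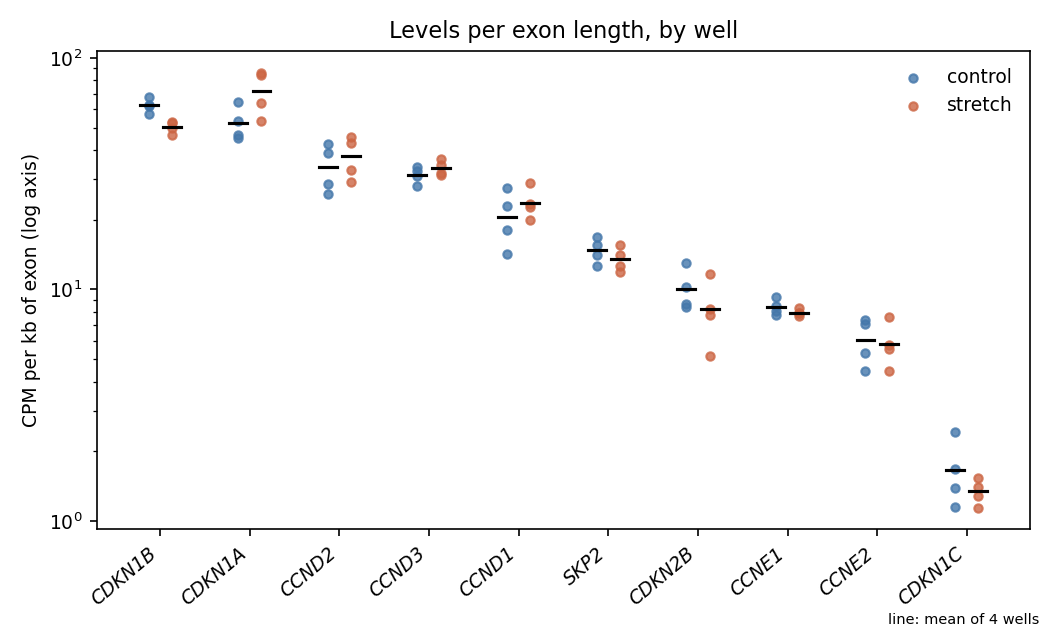
Level per exon length (CPM per kb, log axis) of each gene in control (blue) and stretch wells (orange), ordered by the control mean. Points are wells and lines are means of 4 wells. CDKN1B and CDKN1A stand at the top, and their control wells overlap; CDKN1C stands lowest.

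Exon length limits this order for some genes. The model of CDKN1B holds 597 bases and that of CDKN2B 417 bases. Both are multiples of 3, and reads from any untranslated part outside these models are not in the counts. Changes between wells of the same gene are not affected by its length.

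CDKN1B, the gene of p27, lies on chromosome 27 (12566389 to 12567535, plus strand, coordinates as the table gives them and as in RefSeq for the assembly UU_Cfam_GSD_1.0). Its level was 37.2, 40.3, 34.3 and 37.3 CPM in control replicates 1 to 4. In stretch replicates 1 to 4 it was 29.7, 31.6, 27.7 and 31.3 CPM. The highest stretch well lay below the lowest control well. Groups did not overlap, in either direction, for 2.55% of all tested genes, and among the 10 members this held for CDKN1B alone. The mean went from 37.3 ± 2.44 to 30.1 ± 1.80 CPM (SD, n = 4), a drop to 0.807 of the control level.

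Pair by pair, the log2 differences of CDKN1B were -0.32, -0.35, -0.31 and -0.25 in pairs 1 to 4. These are close to each other, and the fall was of similar size in the wells numbered 1 and 2 (-0.34) and in those numbered 3 and 4 (-0.27). With the replicate block the log2 change was -0.31 ± 0.054 (SE; edgeR, adjusted p = 0.00807). Without the block it was -0.31 ± 0.070 (edgeR, adjusted p = 0.422, unadjusted p = 0.000735). Over all alternatives the adjusted p ran from 0.00379 to 1.00 in edgeR, DESeq2 or limma. With the block, omission of pair 1 or of pair 2 ended the call (edgeR, adjusted p = 0.095 and 0.0563). DESeq2 called CDKN1B without a block too (adjusted p = 0.0216), where it called 0.275% of all tested genes.

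A gene on the opposite strand, the long non-coding LOC119866422, shares 239 exon bases with CDKN1B. It had between 2 and 12 counts per well, against 807 to 1245 for CDKN1B, and was not tested. How the strand was used in counting is not given in the sources used here, so reads of the pair in the shared bases cannot be told apart. Because these are bulk wells, fewer cells with a transcript and less of it per cell cannot be told apart either, for this gene and all others below.

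CDKN1A, the gene of p21 and a target of p53 and of several growth-factor pathways, lies on chromosome 12 (5928229 to 5936457, plus strand). Its level was 96.7, 112, 135 and 94.3 CPM in control replicates 1 to 4. The stretch replicates 1 to 4 had 176, 134, 181 and 111 CPM. Stretch replicates 1 and 3 stood above every control well, but control replicate 3 was above stretch replicates 2 and 4, so the groups overlapped. The mean was 109 ± 18.5 CPM in control and 151 ± 33.5 CPM in stretch wells (SD, n = 4).

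The pair differences of CDKN1A were 0.87, 0.26, 0.42 and 0.24 on the log2 scale. All 4 were positive, and the first was the largest. The log2 change was 0.45 ± 0.12 with the replicate block (SE; edgeR, adjusted p = 0.381) and 0.46 ± 0.18 without it (edgeR, adjusted p = 0.999). CDKN1A therefore had the largest change in size of the 10 members without passing in either of these edgeR fits. It passed in limma-voom with the block (adjusted p = 0.0171), where 0.837% of all tested genes were called, and not in DESeq2 with the block (adjusted p = 0.0975). Its adjusted p over all alternatives in edgeR, DESeq2 or limma ran from 0.0171 to 1.00. Without pair 1, the pair with the largest difference, the change was smaller, 0.31, and it passed (edgeR with the block, adjusted p = 0.0406).

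**Figure D3:**
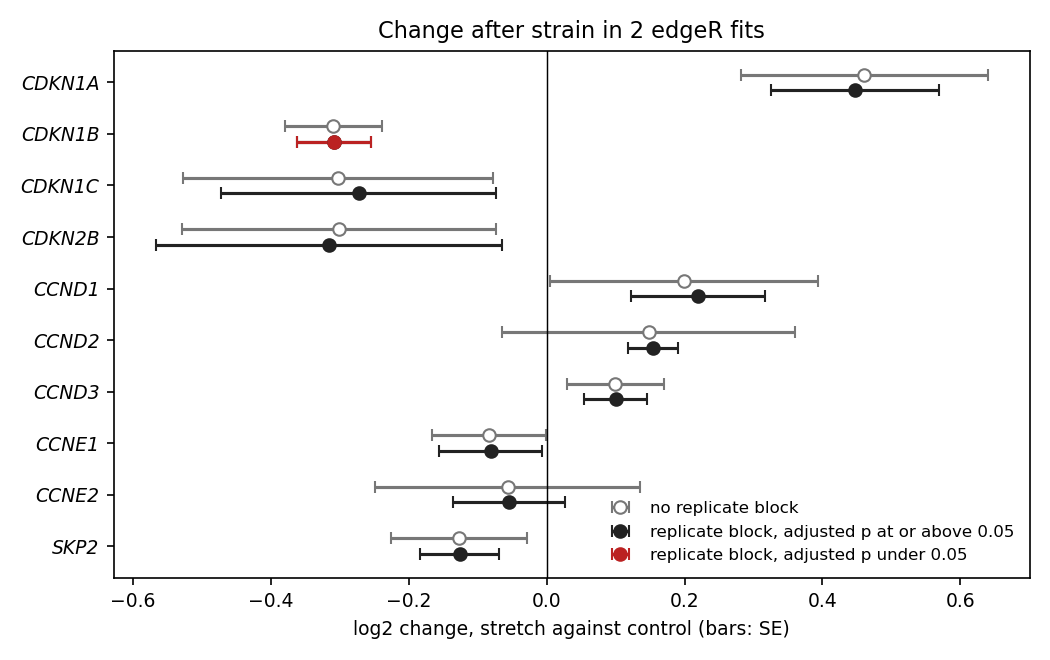
The log2 change of each gene, stretch against control, in edgeR without the replicate block (open circles) and with it (filled circles), with bars of 1 SE. CDKN1B, in red, is the gene with an adjusted p under 0.05 with the block, and the block shortens the bar of CCND2 from 0.21 to 0.036.

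CDKN1C, the gene of p57, was the member with the lowest level, with 57 to 122 counts per well. Control wells ranged from 1.97 to 4.13 CPM and stretch wells from 1.96 to 2.64 CPM, so the stretch wells lay almost wholly inside the control range. Its log2 change was -0.27 ± 0.20 with the block (edgeR, adjusted p = 0.799), and 3 of 4 pairs were lower. Without pair 3 it was -0.044 (edgeR with the block, adjusted p = 0.984).

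The make-up of the CIP/KIP family follows from these values. Of the summed CPM per kb of the 3 genes, CDKN1A held 42.1, 43.9, 51.8 and 41.3% in control replicates 1 to 4. In stretch replicates 1 to 4 it held 62.4, 54.2, 64.5 and 49.7%. The share was larger after strain in every pair, although control replicate 3 lay above stretch replicate 4. CDKN1B held 53.8 ± 5.11% in control and 41.2 ± 6.69% in stretch wells (SD, n = 4). The family's summed level was 116 ± 7.99 CPM per kb in control and 124 ± 13.4 in stretch wells, a difference smaller than the SD of the stretch wells. These shares depend on the exon lengths above, and they restate the values of CDKN1A and CDKN1B rather than add to them.

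**Figure D4:**
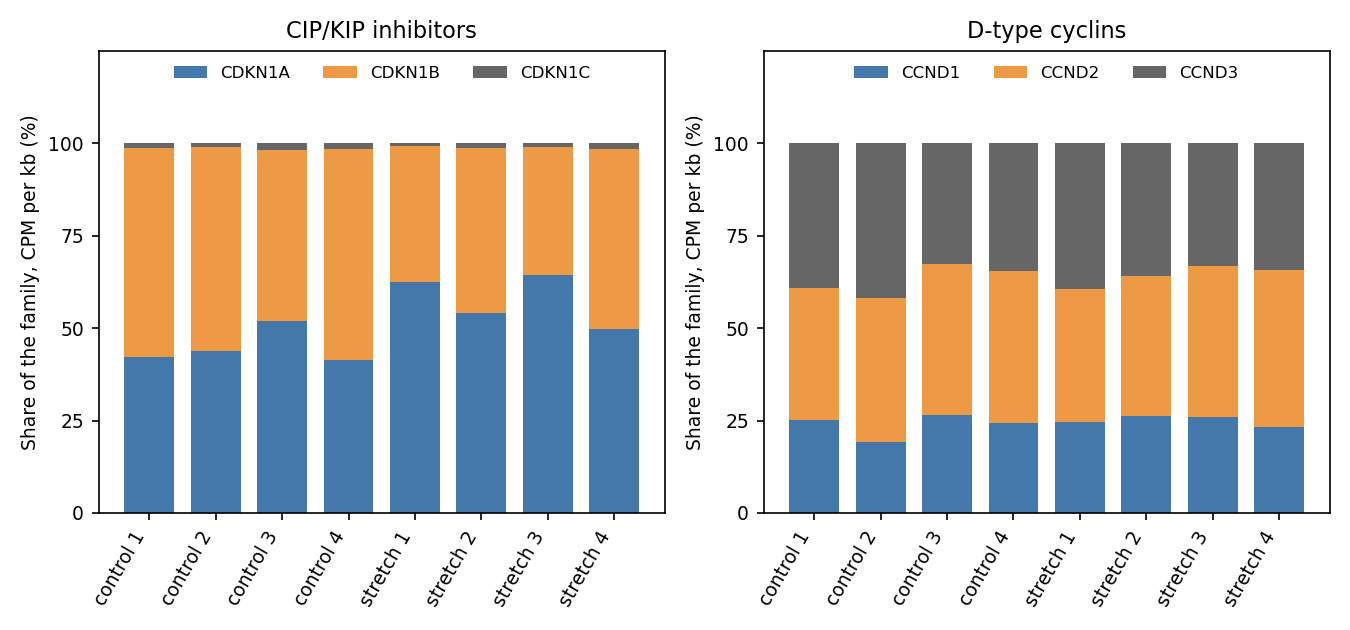
Share of each gene in the summed CPM per kb (%) of its family in each of the 8 wells, for CIP/KIP inhibitors (left) and D-type cyclins (right). CDKN1A takes 41.3 to 51.8% of its family without strain and 49.7 to 64.5% with it, while the D-type cyclins keep similar shares in both groups.

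Among the INK4 inhibitors, CDKN2B had 63 to 161 counts per well. Its level was 3.60, 3.50, 5.45 and 4.29 CPM in control replicates 1 to 4 and 3.43, 4.88, 2.16 and 3.23 CPM in stretch replicates 1 to 4. The highest control well and the lowest stretch well were both replicate 3, and the pair differences went from -1.33 to 0.48 on the log2 scale. The log2 change with the block was -0.32 ± 0.25 (edgeR, adjusted p = 0.84), and without pair 3 it was 0.0015 (edgeR, adjusted p = 0.999). CDKN2B shares 261 exon bases with LOC119873925 on the opposite strand, which had 0 counts in all wells. CDKN2A, the neighbouring INK4 gene, had 0 counts in all 8 wells, which allows up to 0.11 CPM in a well (3 counts, counting error only).

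CDKN2C (p18), the INK4 gene with the smallest p, had 25.5, 28.3, 19.0 and 22.6 CPM in control replicates 1 to 4. The stretch replicates 1 to 4 had 23.3, 19.2, 16.8 and 17.6 CPM. Every pair was lower, but the groups overlapped, since control replicate 3 lay below stretch replicates 1 and 2. Its log2 change with the block was -0.31 ± 0.076 (edgeR, adjusted p = 0.0859), the same size as for CDKN1B without passing.

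The D-type cyclins are the cyclins that growth factors induce. CCND2, on chromosome 27 (5499635 to 5529695), had 169, 187, 280 and 254 CPM in control replicates 1 to 4. In stretch replicates 1 to 4 it had 191, 216, 299 and 281 CPM. The groups overlapped widely, because replicates 3 and 4 of both groups stood far above replicates 1 and 2. Within pairs the differences were small and even, at 0.17, 0.21, 0.094 and 0.15 on the log2 scale. The log2 change was 0.15 ± 0.036 with the replicate block and 0.15 ± 0.21 without it (edgeR, adjusted p = 0.0653 and 0.999). DESeq2 with the block called it (adjusted p = 0.0303), along with CDKN1B, so 2 of 10 members passed there against 0.995% of all tested genes. Over all alternatives the adjusted p of CCND2 ran from 0.0094 to 1.00 in edgeR, DESeq2 or limma, and the lowest was with the block and without pair 3.

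CCND1, the D-type cyclin most closely tied to ERK signalling, had 22.4, 17.7, 34.1 and 28.5 CPM in control replicates 1 to 4. In stretch replicates 1 to 4 it had 24.8, 28.3, 35.9 and 29.0 CPM. All pairs were higher, but pair 2 alone differed by 0.68 on the log2 scale and the others by 0.023 to 0.15. The log2 change with the block was 0.22 ± 0.098 (edgeR, adjusted p = 0.559). It was 0.41 in the wells numbered 1 and 2 alone, and 0.056 in those numbered 3 and 4.

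CCND3 varied least of the 3 D-type cyclins, from 69.5 to 83.7 CPM in control and from 77.1 to 91.0 CPM in stretch wells. Its log2 change with the block was 0.10 ± 0.046, higher in 4 of 4 pairs (edgeR, adjusted p = 0.544). Antisense to CCND3 lie LOC111098258 and LOC111098259, both with 0 counts in all wells. The summed level of the D-type cyclins was 85.8 ± 15.7 CPM per kb in control and 94.8 ± 13.6 in stretch wells. The difference was smaller than either SD, which take in the gap between replicates 1 and 2 and replicates 3 and 4 described below, and the sum was higher in every pair. It went from 71.8 to 80.9, from 73.5 to 86.7, from 103.8 to 111.0 and from 94.2 to 100.5 CPM per kb in pairs 1 to 4. Within the family, CCND2 held 39.2 ± 2.46% of the summed level in control and 39.3 ± 3.00% in stretch wells.

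The E-type cyclins act after the D-type cyclins, at the entry into S phase. CCNE1 had from 14.9 to 17.8 CPM in control and from 14.7 to 15.9 CPM in stretch wells. All 4 pairs were lower, by 0.021 to 0.17 on the log2 scale, and the log2 change with the block was -0.081 ± 0.075 (edgeR, adjusted p = 0.863). CCNE2 ranged from 12.3 to 20.3 CPM in control and from 12.2 to 20.9 CPM in stretch wells, nearly the same range. Its log2 change was -0.055 ± 0.081 with the block (edgeR, adjusted p = 0.929), with 2 pairs higher and 2 lower. CCNE2 spans 40186991 to 40200957, and INTS8 on the opposite strand ends at 40187065, so their exons share bases only at that end. INTS8 had 1232 to 1846 counts per well against 393 to 610 for CCNE2. Reads in the shared bases cannot be told apart, so CCNE2 is uncertain to that extent. CCNE2 also shares exon bases with LOC119866747, which had 0 to 7 counts per well.

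SKP2 had 40.7, 45.5, 54.0 and 49.9 CPM in control replicates 1 to 4. The stretch replicates 1 to 4 had 40.7, 38.3, 45.1 and 50.0 CPM. Pairs 1 and 4 differed by only 0.00021 and 0.0013 on the log2 scale, and pairs 2 and 3 were lower by a similar amount, -0.25 and -0.26. The log2 change was -0.13 ± 0.057 with the block (edgeR, adjusted p = 0.525). CDKN1B was lower in all 4 pairs, also in pairs 1 and 4, and a link between these transcripts was not tested.

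Several members differed more between replicate numbers than between the groups. Every well of replicates 3 and 4 was above every well of replicates 1 and 2 for CCND1, CCND2 and CCND3, and below for CCNE2. Such a complete separation was found for 20.4% of all tested genes. The mean of replicates 3 and 4 was 1.46 times that of replicates 1 and 2 for CCND2, 1.37 times for CCND1, 1.13 times for CCND3 and 0.709 times for CCNE2. CDKN1A and CDKN1B did not follow it, with ratios of 1.00 and 0.941. CDKN1C and SKP2 had ratios of 1.36 and 1.20, though their wells overlapped between the replicate numbers. CCNE1 and CDKN2B overlapped too, with ratios of 1.06 and 0.982. The labels do not say what the numbers share, and the division was seen in the data. A block with these 2 levels in place of 4 left CDKN1B called (edgeR, adjusted p = 0.0191), 1 of 10 members against 0.398% of all tested genes. For CCND2 the adjusted p was then 0.249 in edgeR.

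The other parts of the G1/S machinery, a list of 42 genes of which 41 were tested, gave 0 calls in edgeR, without the block and with it. Of these genes, 3 without the block and 5 with it had an unadjusted p under 0.05, against 3.97% and 8.89% of all tested genes. DESeq2 and limma-voom called 0 as well, with and without the block. Their log2 changes with the block ran from -0.31 to 0.12, with a median of -0.016 against -0.0022 for all tested genes. The kinases themselves are named here after their values were seen. CDK4 had 250 ± 19.3 and 251 ± 21.1 CPM, and CDK2 had 68.3 ± 7.71 and 67.5 ± 5.31 CPM in control and stretch wells (SD, n = 4). CDK6 had 119 ± 8.8 and 124 ± 8.46 CPM, higher in all 4 pairs, and its log2 change with the block was 0.068 ± 0.041 (edgeR, adjusted p = 0.732). The 3 genes of the list with the smallest p with the block were CDKN2C, CCNA2 and LIN54. CCNA2, the cyclin of S phase and G2, had 154, 164, 164 and 159 CPM in control replicates 1 to 4 and 145, 144, 121 and 150 CPM in stretch replicates 1 to 4. Every stretch well was below every control well, and the log2 change with the block was -0.20 ± 0.053 (edgeR, adjusted p = 0.148). LIN54, a DNA-binding subunit of the DREAM complex that represses cell-cycle genes in quiescence, had 36.0 ± 3.66 CPM in control and 30.1 ± 2.33 CPM in stretch wells (edgeR with the block, adjusted p = 0.192).

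Genes driven by E2F, the output of this pathway, gave 0 calls among 16 tested in edgeR, without the block and with it. There the unadjusted p was under 0.05 for 1 without the block and 9 with it, against 3.97% and 8.89% of all tested genes. DESeq2 and limma-voom gave 0 calls as well. With the block 13 were below 0 and 3 above, where 7462 of all 14571 tested genes were below 0. Their median log2 change was -0.077, against -0.0022 over all tested genes. The genes with the smallest p were CDC45 (0.17), MCM2 (-0.14) and UHRF1 (-0.18), which differ in sign, and their adjusted p was 0.249, 0.265 and 0.357 (edgeR with the block). CDC45 and MCM2 are parts of the replicative helicase, and UHRF1 maintains DNA methylation during replication.

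CDKN1A is a p53 target, and 15 of 18 other p53 targets were tested. With the block 12 were above 0 and 3 below, where 7109 of all 14571 tested genes were above 0. Their median log2 change was 0.058, against -0.0022 over all tested genes. In edgeR 0 passed without the block and 1 of 15 with it, where 0.7% of all tested genes did. The unadjusted p was under 0.05 for 2 without the block and 4 with it, against 3.97% and 8.89% of all tested genes. The gene that passed was BTG2, an antiproliferative gene that other stimuli induce too. It had 50.8, 60.7, 60.7 and 57.3 CPM in control replicates 1 to 4 and 78.7, 123, 100.3 and 79.3 CPM in stretch replicates 1 to 4, with no overlap. With the replicate block its log2 change was 0.71 ± 0.076 (edgeR, adjusted p = 0.0023). The coarser block of 2 levels left the change at 0.73 and ended the call (edgeR, adjusted p = 0.338). DESeq2 without a block and limma-voom with the replicate block called BTG2 too (adjusted p = 7.0e-05 and 6.7e-04), as did DESeq2 with the replicate block. MDM2, the ubiquitin ligase of p53, was the other gene of the list with no overlap and is named after its values were seen. It had 114 ± 7.18 CPM in control and 127 ± 4.18 CPM in stretch wells, and its log2 change with the block was 0.16 ± 0.043 (edgeR, adjusted p = 0.137).

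CDKN1B is a target of the FOXO factors, and 10 of 11 other FOXO-linked genes were tested. With the block 8 were below 0 and 2 above, where 7462 of all 14571 tested genes were below 0. Their median log2 change was -0.17, against -0.0022 over all tested genes. In edgeR 0 passed without the block and 1 of 10 with it, where 0.7% of all tested genes did. An unadjusted p under 0.05 was reached by 2 without the block and 4 with it, against 3.97% and 8.89% of all tested genes. The gene that passed was KLF6, a zinc-finger factor, and its sign was opposite to that of CDKN1B. KLF6 had 184, 201, 258 and 231 CPM in control replicates 1 to 4 and 222, 282, 287 and 296 CPM in stretch replicates 1 to 4, higher in all 4 pairs with overlapping groups. With the replicate block its log2 change was 0.32 ± 0.047 (edgeR, adjusted p = 0.00311). The coarser block left the change at 0.32 and ended this call too (edgeR, adjusted p = 0.134). DESeq2 and limma-voom with the replicate block called KLF6 and also CITED2, a transcriptional coregulator named after its values were seen. CITED2 had 78.5 ± 11.8 CPM in control and 63.0 ± 10.6 CPM in stretch wells, lower in all 4 pairs. For CITED2 these blocked fits gave adjusted p = 0.00227 in DESeq2 and 0.0399 in limma-voom, against 0.0502 in edgeR.

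Regulators upstream of the inhibitors and cyclins gave 0 calls among 17 tested in edgeR, without the block and with it. Among them 1 without the block and 4 with it had an unadjusted p under 0.05, against 3.97% and 8.89% of all tested genes. The smallest p belonged to MYC, FOXO1 and SMAD3. MYC, which induces D-type cyclins and represses CDKN1A, had 190 ± 32.8 CPM in control and 234 ± 33.7 CPM in stretch wells. It was higher in all 4 pairs, and its log2 change with the block was 0.30 ± 0.069 (edgeR, adjusted p = 0.148). Limma-voom with the block called it (adjusted p = 0.036), and DESeq2 with the block did not (adjusted p = 0.101). FOXO1 and SMAD3 had log2 changes of 0.24 and 0.16 in the same fit (edgeR, adjusted p = 0.248 and 0.324).

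**Figure D5:**
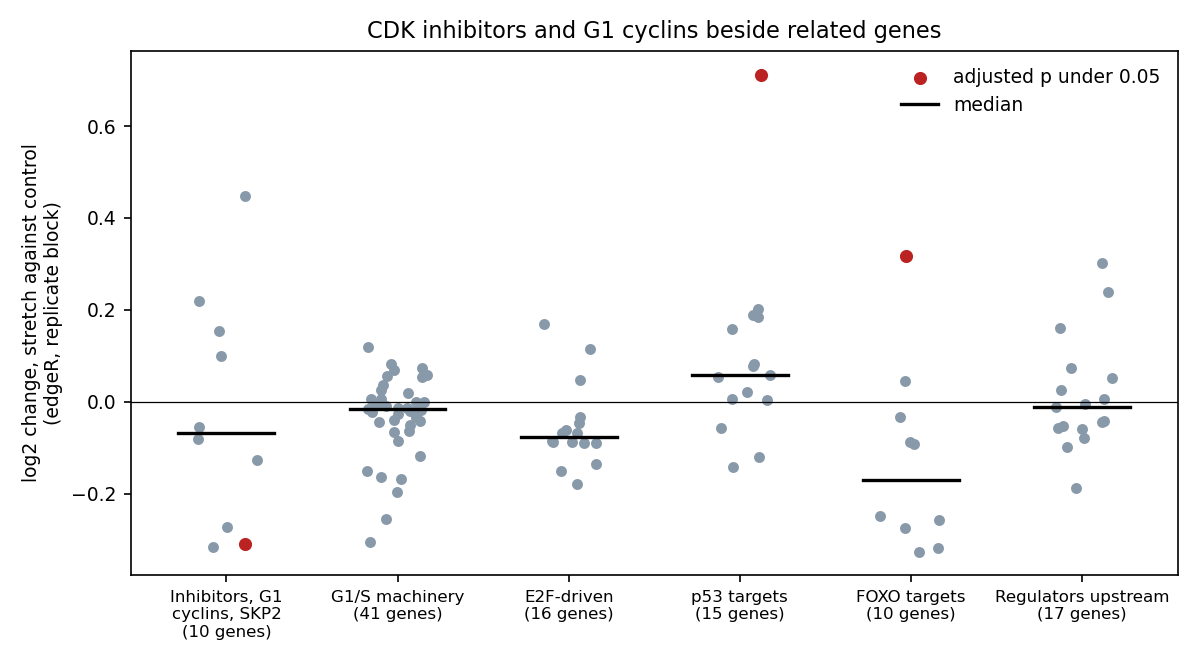
The log2 change of each tested gene (edgeR with the replicate block), for the 10 inhibitors, cyclins and SKP2 and for 5 lists of related genes; black lines are medians. Red points have an adjusted p under 0.05 and are CDKN1B, BTG2 and KLF6.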

How the data were processed

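RNA was sequenced from polyA-selected, strand-specific libraries of 8 wells, per the labels. The deposited table gives, for each gene, the raw count of reads on its exons. The submitters' processing notes name FastQC 0.11.8, Trim Galore 0.6.5, STAR 2.7.3a, Subread and featureCounts. The genome build, the strand setting and the handling of multi-mapped reads are not given in the sources used here. Exon lengths came from the deposited table, and 37291 of its 37952 symbols matched RefSeq genes of UU_Cfam_GSD_1.0, all with identical start and end. Each of the 8 columns matched a sample by library name.

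Counts were tested with edgeR 4.0.16 in R 4.3.3 (glmQLFit with robust estimation, glmQLFTest, TMM factors, filterByExpr with a minimum count of 10 and a minimum total of 15). Two-sided p-values were adjusted (Benjamini-Hochberg) over all 14571 tested genes, with a threshold of 0.05. The fit was checked on simulated data. The design had no block. The replicate number was also fitted as a block, since both groups carry the numbers 1 to 4. Deviations of same-numbered wells from their group means correlated at 0.33, 0.11, 0.18 and 0.18 across genes, so the numbers were treated as pairs and the blocked values are printed beside the others. Other numbers matched as well in part: control 2 with stretch 1, control 3 with stretch 4 and control 4 with stretch 3 correlated at 0.24, 0.22 and 0.19, each above at least 1 of these wells' own pairs. No wells of a group were alike within sampling noise (chi-square per degree of freedom of 5.14 or more over genes with at least 50 counts). Alternatives were DESeq2 1.42.0, limma-voom (limma 3.58.1), other size factors and filters, a block of 2 levels, and leaving out wells or pairs. Pair differences are log2 ratios of CPM.

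The members, the gene lists and the alternatives were chosen with earlier results of these data known. Named were all 10 members, genes that overlap them, and from each list every gene called with or without the block, or else the 3 with the smallest p with the block. CDK2, CDK4, CDK6, CDKN2A, CITED2, CLDN1 and MDM2 were named outside this rule, after their values were seen. Figures were drawn with matplotlib 3.10.9 in Python 3.11.15.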

Additional observations from a re-analysis of the deposited data

How the results depend on the processing

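Of 220 log2 changes of the 10 members under 22 alternatives each, 215 kept their direction. The 5 that turned belonged to genes that passed in no fit. CDKN2B went from -0.30 to 0.0015 without pair 3 with the replicate block. CCNE2 went from -0.057 to 0.05 without control replicate 1, 0.034 without control replicate 2, 0.0595 without stretch replicate 4, and 0.034 without pair 2 with the block; over all wells left out in turn it ran from -0.21 to 0.0595, and the cause was not tested. CDKN1B stayed between -0.35 and -0.27, and 7 of its 22 alternatives called it.

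Counts of calls depended on the block and the tool. Over all tested genes the count was 0 in edgeR without the block and also 0 in limma-voom without a block. It was 102 with the replicate block in edgeR, 58 with the block of 2 levels, 40 in DESeq2 with no replicate block, 145 in DESeq2 with the replicate block, 122 in limma-voom with the replicate block and 11 without the filter on low counts. Leaving out 1 well without a block gave 0 to 12, and leaving out pair 1, 2, 3 or 4 with the replicate block gave 43, 67, 186 and 74. Of the 10 members, 1 was called with the replicate block, 1 with the block of 2 levels, 1 in DESeq2 without a block, 2 in DESeq2 with the replicate block (CDKN1B and CCND2) and 2 in limma-voom with it (CDKN1A and CDKN1B). Leaving out 1 well called 0 members and leaving out 1 pair with the block called 0 to 2.

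For p53 targets the count went from 0 to 1 with the replicate block in edgeR, to 1 in DESeq2 with or without the block and to 1 in limma-voom with the block. For FOXO targets it went from 0 to 1 with the replicate block in edgeR and to 2 in DESeq2 and in limma-voom, each with the block. Leaving out 1 pair with the block gave 1 to 2 p53 targets, 1 to 3 FOXO targets and 0 to 1 genes of the G1/S machinery, where all other alternatives gave 0 of the latter. E2F-driven genes gave 0 under all 22 alternatives. Among the genes named in the results, the replicate block in edgeR changed the call of CDKN1B, BTG2 and KLF6 and no other call. These counts do not say that the same genes were called. The cause of these shifts was not tested. CDKN1C and CDKN2B had the fewest counts of the members, 57 to 161 per well.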
